A study of Mus musculus with 6 samples.

Results

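Collagen chain genes are described here in the female mouse hypothalamus. Their members were all genes whose symbol in the array's platform annotation reads Col, a number, a and a number, taken from probesets (the sets of probes that give 1 value on the array) with 1 gene. There were 44 such genes, of 17072 genes named by probesets of 1 gene, and 46 probesets held them. Where a gene had more than 1 probeset, the one with the highest mean over all arrays stood for it. The CGP group comprised 3 Affymetrix Mouse Gene 1.0 ST arrays of C57Bl/6J offspring whose mothers were given CGP 39551, a blocker of the NMDA receptor, at 5 mg/kg by mouth in pregnancy and up to the end of weaning. The control group (CON) comprised 3 arrays of offspring of the same strain without the drug. Each group's RNA came from 18 mice, pooled, at an age of 21 weeks. The labels do not say if each array had a pool of its own, so that p-values speak of the spread between arrays alone, which may be technical.

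Collagens are proteins of the extracellular matrix whose chains wind around each other in a helix, with glycine at regular steps. Fibril-forming types give tensile strength, type IV builds the sheet of basement membranes, and fibril-associated types sit on the surface of fibrils. In brain, the fibrillar chains are known mainly from the meninges and from fibroblasts around vessels. The type IV chains are known from the basement membrane around vessels, and some transmembrane collagens are made by neurons.

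Signals are log2 RMA values, the authors' normalized brightness of a probeset, on which a difference of 1 is a 2-fold change. The medians of the 6 arrays lay between 8.19 and 8.21. Signals of different probesets depend on their probes and are not set against each other. Of 14 genes that define the hypothalamus, 13 were measured and all lay above the signal filter of 6. Only 451 of 18690 probesets of 1 gene lay below that filter, so that passing it does not identify a tissue. Mean signals of the 13 genes ran from 7.02 to 12.52. The highest was that of the orexin gene Hcrt, at 12.54 in CGP and 12.51 in CON. The sample titles name hypothalamic RNA, and one of the label texts speaks of adrenal glands. Hcrt is known from the hypothalamus, but no list of adrenal genes was examined. These signals therefore do not settle the difference between the label texts. CGP replicate 1 stood apart from the other arrays: it lay at -9.67 on the second principal component, which held 21.7% of the variance, and the other arrays lay between -0.013 and 4.78. Values without it are therefore given below.

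No collagen chain gene passed the test between CGP and CON. All 44 genes had a mean signal of at least 6 and were tested, and 0 had an adjusted p under 0.05 by limma, with Benjamini-Hochberg adjustment over all 18239 tested probesets. Over those probesets, 0.154% passed as higher in CGP and 0.126% as lower, 0.28% in all, so that 0 of 44 was close to the background. At an unadjusted p under 0.05 there was 1 gene, Col25a1, higher in CGP, where 5.25% of all tested probesets were higher and 5.83% lower by that rule. A test on each gene's own variance alone gave 0 genes with or without adjustment. The smallest adjusted p of the members by limma was 0.358. The median difference, CGP minus CON on the log2 scale, was 0.011 over the members and -0.0031 over all tested probesets. Of the 44 genes, 27 had a higher and 17 a lower mean in CGP, against 52.1% of all tested probesets with a lower mean, and none of these differences passed.

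The data bound the size of any difference in signal. The standard errors by limma ran from 0.036 to 0.082 on the log2 scale, and 95% intervals were taken gene by gene, without adjustment for their number. The lowest bound was -0.19, that of Col13a1, and the highest was 0.29, that of Col14a1, which is 1.22-fold. A change of 1.4-fold either way is 0.49 on this scale, and all 44 intervals lay inside it. For 42 genes the interval lay inside 1.2-fold as well, and the interval of 1 gene, Col25a1, left out 0. These intervals cover the spread between arrays of pooled RNA and not the spread between mice. They also hold for the signals alone. Mean signals of the members ran from 6.43 to 8.66, with 4 genes under 7 and 26 from 7 to 8. Low signals are compressed by background, so that differences in RNA may be larger than the intervals show.

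**Figure D1:**
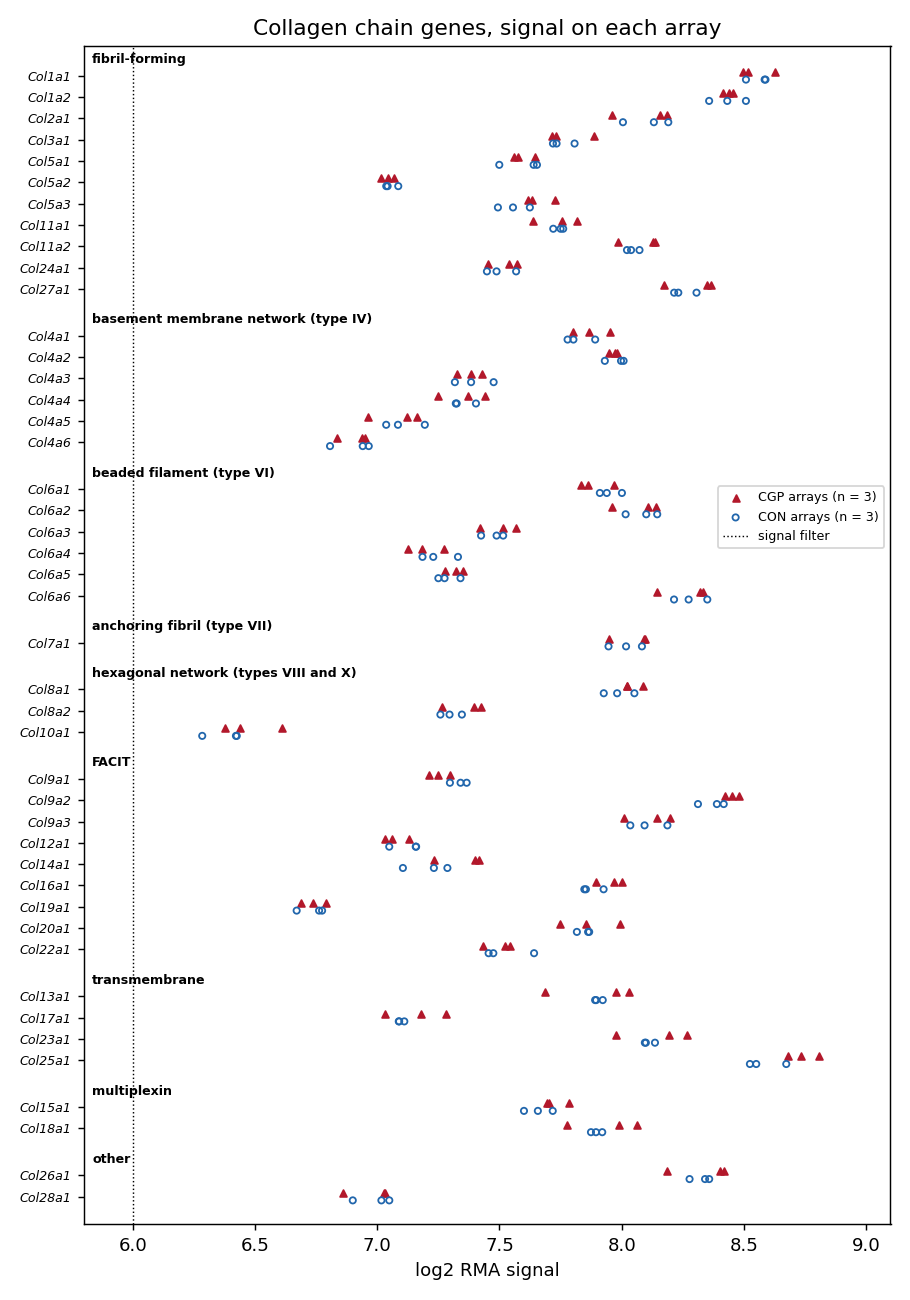
Signal of the 44 collagen chain genes by structural class. Log2 RMA signal runs along the horizontal axis, triangles are the 3 CGP arrays, circles the 3 CON arrays, and a dotted line marks the filter of 6; CGP and CON overlap for all genes except Col25a1 and Col9a2.

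**Figure D2:**
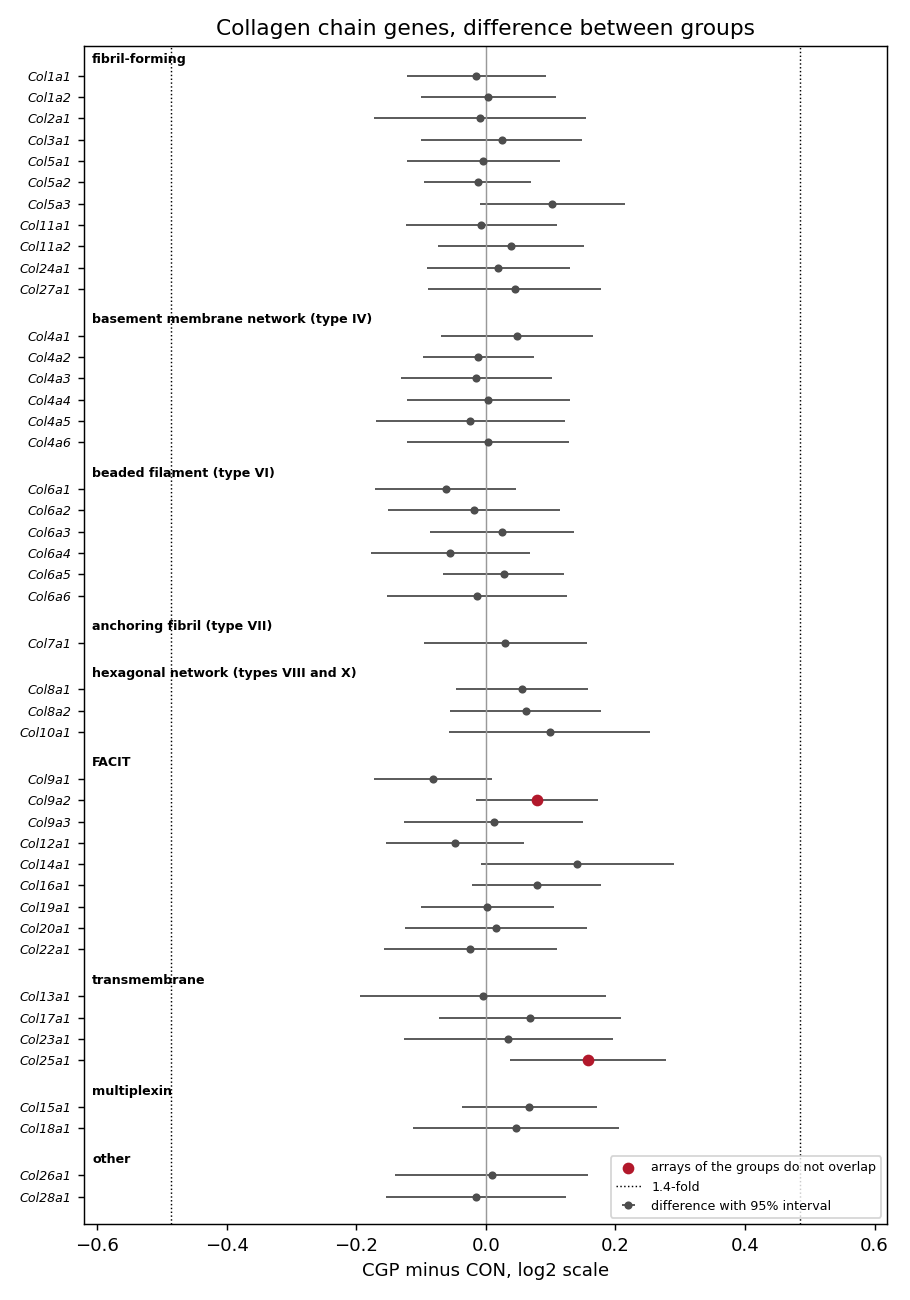
Difference between CGP and CON for the 44 collagen chain genes. Points give the log2 difference, CGP minus CON (n = 3 arrays each), bars the 95% interval by limma without adjustment, and dotted lines a 1.4-fold change; every bar lies inside those lines, and the 2 large points mark Col25a1 and Col9a2.

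Genes whose CGP arrays all lay to one side of all CON arrays were few. There were 2 of 44, or 4.55%, both with CGP above CON and none below. Among all tested probesets this held for 7.59% with CGP above, 9.95% with CGP below and 17.5% in all. The 2 genes were Col25a1 and Col9a2. With only 3 arrays against 3, an exact permutation test of 1 gene cannot give a two-sided p below 0.1.

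Col25a1 encodes a transmembrane collagen of neurons, also known as the precursor of a collagenous component of amyloid plaques. It had signals of 8.73, 8.81 and 8.68 on the CGP arrays, against 8.55, 8.52 and 8.67 on the CON arrays. The lowest CGP array and the highest CON array nearly met. The difference was 0.16 (standard error 0.052, 95% interval 0.037 to 0.28), and its adjusted p of 0.358 by limma did not pass. With each array left out it ran from 0.12 to 0.20. It was positive each time, which follows from groups that do not overlap and is no separate support. Col9a2 encodes a chain of type IX collagen, which coats type II fibrils in cartilage. It had signals of 8.42, 8.48 and 8.45 in CGP, against 8.31, 8.39 and 8.42 in CON, a difference of 0.079 (standard error 0.041, adjusted p = 0.523 by limma). Its separation of the groups rests on the values 8.42 and 8.42, which differ by less than the printed digits. When the arrays were centred on their medians, the groups of Col9a2 overlapped and those of Col25a1 did not.

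The stretches before the start sites of these genes are shown because they are the only members whose groups did not overlap. RefSeq (GRCm38.p6) held windows of 300 bases around the start for 35 of the 44 genes, 38 windows in all. Shown are the 250 bases before the start of each window, on the plus strand, at chr3:130180595-130180844 for Col25a1 and at chr4:121039316-121039565 for Col9a2. The Col9a2 stretch ends just before the gene span, which begins at 121039566. The Col25a1 stretch precedes a start inside the gene span, which begins at 130180358. Capitals mark matches, on either strand, to GGGCGG (the GC box of Sp1), to CCAAT (the CCAAT box) and to TATAAA (the TATA box).
Col25a1: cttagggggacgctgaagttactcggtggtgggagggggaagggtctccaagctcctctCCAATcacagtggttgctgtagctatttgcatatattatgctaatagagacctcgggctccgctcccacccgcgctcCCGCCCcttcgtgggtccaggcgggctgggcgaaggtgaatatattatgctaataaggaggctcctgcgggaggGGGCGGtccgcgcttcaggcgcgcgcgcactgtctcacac
Col9a2: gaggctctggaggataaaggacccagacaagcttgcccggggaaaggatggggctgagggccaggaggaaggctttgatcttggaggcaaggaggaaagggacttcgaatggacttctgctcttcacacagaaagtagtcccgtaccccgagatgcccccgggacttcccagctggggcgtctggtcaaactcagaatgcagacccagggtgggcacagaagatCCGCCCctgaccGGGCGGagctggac
The stretch of Col25a1 held GGGCGG and CCAAT matches, and that of Col9a2 held only GGGCGG matches. Over both strands of the whole windows, overlapping matches included, GGGCGG was found in 23 of 38 member windows (60.5%), against 35.7% of all 32851 promoter windows of the same length. CCAAT was found in 34.2% of the member windows and in 37.4% of all windows. TATAAA was found in 13.2% of the member windows and in 13.6% of all windows. The median GC content was 59.9% in member windows and 52.7% in all. These matches describe letters only, and no binding was measured.

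Fibril-forming chains had 11 genes, with mean signals from 7.05 to 8.55 over the 6 arrays. Differences ran from -0.014 to 0.10, with a median of 0.0040, and 6 were positive and 5 negative. Col1a1, the main chain of type I collagen, had signals of 8.52, 8.63 and 8.50 in CGP, against 8.58, 8.51 and 8.59 in CON. The groups overlapped, and the 95% interval of the difference ran from -0.12 to 0.093. Its partner chain Col1a2 had signals of 8.41, 8.44 and 8.46 in CGP, against 8.43, 8.36 and 8.51 in CON, and the interval ran from -0.10 to 0.11. Col3a1, the type III chain found with type I in vessel walls, was at 7.78 ± 0.094 in CGP and 7.75 ± 0.047 in CON (SD, n = 3 arrays each), and the interval of its difference ran from -0.099 to 0.15. For each of these 3 genes the arrays of both groups overlapped. The largest difference of the class was that of Col5a3, a chain of type V collagen, which takes part in setting fibril width. Col5a3 had signals of 7.63, 7.62 and 7.73 in CGP, against 7.56, 7.49 and 7.62 in CON, a difference of 0.10 (standard error 0.049, adjusted p = 0.495 by limma). The lowest CGP array lay just under the highest CON array. The other type V chains, Col5a1 (-0.0035) and Col5a2 (-0.012), had smaller differences than Col5a3, and the differences between chains were not tested. Col2a1, the type II chain of cartilage, differed by -0.0088, with CGP arrays at 7.96 to 8.18 and CON arrays at 8.01 to 8.19. Differences of Col11a1 and Col11a2, the type XI chains that nucleate type II fibrils, were -0.0069 and 0.039. Those of Col24a1 and Col27a1, the later-found fibrillar chains, were 0.019 and 0.044.

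The 6 type IV chains, which form the network of basement membranes, had differences from -0.024 to 0.048 with a median of -0.0041, and 3 were positive and 3 negative. Col4a1 and Col4a2 form the type IV collagen of most vessels. Col4a2 had signals of 7.98, 7.95 and 7.97 in CGP, against 7.93, 7.997 and 8.01 in CON, and the groups overlapped. The 95% interval of its difference ran from -0.098 to 0.074. Col4a1 was at 7.87 ± 0.075 in CGP and 7.82 ± 0.060 in CON (SD, n = 3 arrays each), a difference of 0.048 (adjusted p = 0.762 by limma). These genes are neighbours in RefSeq, as are Col4a3 with Col4a4 and Col4a5 with Col4a6, known as head-to-head pairs. The differences within each pair were 0.048 (Col4a1) and -0.012 (Col4a2), -0.014 (Col4a3) and 0.0041 (Col4a4), and -0.024 (Col4a5) and 0.0035 (Col4a6), so that in each pair the signs were opposite and the values small. Col4a3, Col4a4 and Col4a5 are the chains of the kidney filter, and Col4a5 and Col4a6 also occur around smooth muscle. The mean signal of Col4a6 over the 6 arrays was 6.91.

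The multiplexins Col15a1 and Col18a1 lie at the outer and inner face of basement membranes, and Col18a1 gives rise to endostatin. Col18a1 had signals of 7.78, 7.99 and 8.06 in CGP, against 7.89, 7.87 and 7.92 in CON. CGP replicate 1 lay below all CON arrays and the other CGP arrays lay above them. Its difference was 0.047 (standard error 0.069, adjusted p = 0.839 by limma). Col15a1 was at 7.73 ± 0.050 in CGP and 7.66 ± 0.059 in CON (SD, n = 3 arrays each), a difference of 0.067 (adjusted p = 0.622 by limma).

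Type VI collagen forms beaded filaments close to basement membranes and had 6 genes, 2 with a positive and 4 with a negative difference, and a median of -0.016. Col6a1, Col6a2 and Col6a3 are the chains of the common form. Col6a1 had signals of 7.86, 7.84 and 7.97 in CGP, against 7.91, 7.94 and 8.001 in CON, a difference of -0.062 (standard error 0.047, adjusted p = 0.661 by limma). Its groups overlapped. Col6a2 differed by -0.018 and Col6a3 by 0.025. Col6a4, Col6a5 and Col6a6 are neighbouring genes of similar sequence, so that their probes may cross-hybridise, and their values are uncertain. Col6a6 had signals of 8.14, 8.33 and 8.32 in CGP, against 8.21, 8.35 and 8.27 in CON, a difference of -0.014. Its other probeset had a mean of 5.96, below the filter, and differed by 0.081, so that the probesets of this gene disagreed in sign. The 2 probesets of Col6a5 differed by 0.028 and 0.095. Col6a4 differed by -0.055, with CGP arrays at 7.13 to 7.27 and CON arrays at 7.19 to 7.33. Col7a1, which forms the anchoring fibrils of skin, had signals of 7.95, 8.09 and 8.10 in CGP, against 8.02, 7.95 and 8.08 in CON, and the difference was 0.030.

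The network-forming types VIII and X had 3 genes, all with a positive difference and none past the test. Col8a1, a chain of type VIII collagen from vessels and the cornea, had signals of 8.02, 8.02 and 8.09 in CGP, against 7.98, 8.05 and 7.93 in CON, a difference of 0.056 (adjusted p = 0.673 by limma). Its partner Col8a2 differed by 0.062. Col10a1, known from growth plate cartilage, differed by 0.098, and its mean signal over the 6 arrays, 6.43, was close to the filter of 6. Signals that low are compressed by background, so that a difference may read smaller than it was.

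FACITs, the fibril-associated collagens with interrupted helices, had 9 genes, 6 with a positive and 3 with a negative difference. Their differences ran from -0.081 to 0.14, with a median of 0.012. Col14a1, a type XIV chain on type I fibrils, had the highest upper bound of all members. It had signals of 7.23, 7.40 and 7.42 in CGP, against 7.29, 7.10 and 7.23 in CON, a difference of 0.14 (standard error 0.065, 95% interval -0.0074 to 0.29, adjusted p = 0.472 by limma). CGP replicate 1 lay among the CON arrays and the other CGP arrays above them. Col9a1, a type IX chain like Col9a2, had the lowest difference of all members, -0.081 (standard error 0.039, adjusted p = 0.502 by limma). Its signals were 7.25, 7.30 and 7.21 in CGP, against 7.30, 7.37 and 7.34 in CON, and the groups met at 7.30. The third type IX chain, Col9a3, differed by 0.012, so that the chains of this type did not share a sign. Col16a1, a type XVI chain, differed by 0.078 (adjusted p = 0.548 by limma), and Col12a1, a type XII chain of tendon and other dense tissue, by -0.048. Col19a1, known from interneurons that form synapses, was at 6.74 ± 0.050 in CGP and 6.74 ± 0.057 in CON (SD, n = 3 arrays each), a difference of 0.0024. Col20a1 and Col22a1 differed by 0.016 and -0.024.

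Beside Col25a1, the transmembrane class held Col13a1, known from the neuromuscular junction, Col17a1 of hemidesmosomes, and Col23a1. Col13a1 had signals of 7.69, 8.03 and 7.98 in CGP, against 7.92, 7.89 and 7.90 in CON. The CON arrays lay close together, CGP replicate 1 lay below them and the other CGP arrays above, and the difference was -0.0038 (standard error 0.082). Col17a1 and Col23a1 had the same layout, with differences of 0.068 and 0.035. The SD between CGP arrays was 0.19 for Col13a1, 0.13 for Col17a1 and 0.15 for Col23a1, and the SD between CON arrays was 0.017, 0.013 and 0.023 in the same order of genes. Col26a1, which does not fall into these classes, had signals of 8.18, 8.40 and 8.42 in CGP, against 8.28, 8.36 and 8.34 in CON. The last member, Col28a1, known from peripheral nerve, was at 6.97 ± 0.097 in CGP and 6.99 ± 0.079 in CON (SD, n = 3 arrays each).

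The collagen chain genes shared a pattern between arrays that did not follow the groups. CGP replicate 1 was the lowest of the CGP arrays for 36 of the 44 genes (81.8%), against 29.1% of all tested probesets. CGP replicates 2 and 3 were lowest for 4 genes each. In the control group, CON replicate 2 was lowest for 26 genes, CON replicate 1 for 14 and CON replicate 3 for 4. The members' median deviation from their own mean was -0.063 on CGP replicate 1, 0.056 on CGP replicate 2 and 0.049 on CGP replicate 3, against -0.020, -0.037 and 0.026 on CON replicates 1 to 3. Over all tested probesets the same medians lay between -0.013 and 0.0071. The pattern ran through the classes: CGP replicate 1 was lowest for 8 of 11 fibril-forming, 5 of 6 type IV, 5 of 6 type VI, 7 of 9 FACIT and 3 of 4 transmembrane genes. It also moved with the level of signal. Among all tested probesets, CGP replicate 1 was the lowest CGP array for 54.8% with a mean signal from 6 to 7, 44.9% from 7 to 8, 22.6% from 8 to 9 and 12.5% from 9 up. The members held 4, 26, 14 and 0 genes in these bands, and CGP replicate 1 was lowest for 4, 20 and 12 of them. The part of signal level in the members' pattern was not tested.

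**Figure D3:**
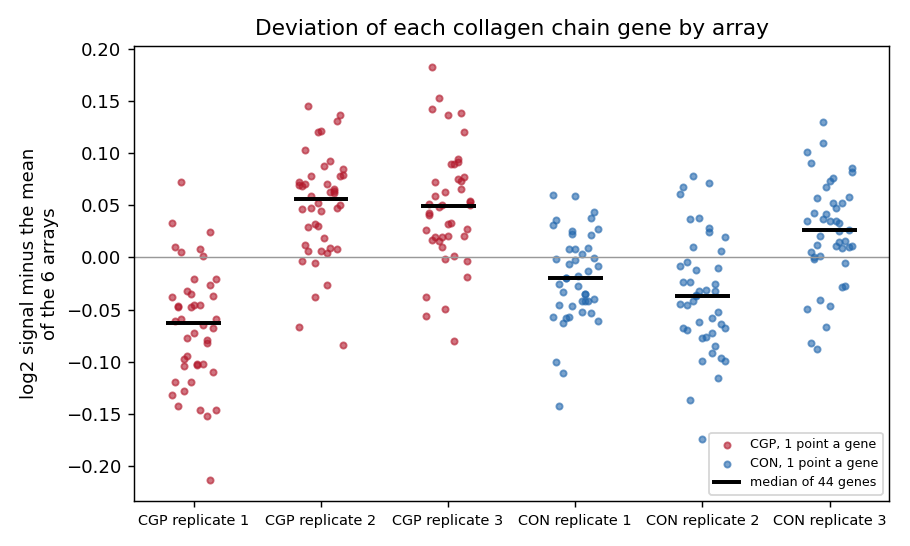
Deviation of each collagen chain gene from its own mean over the 6 arrays, by array. The vertical axis is on the log2 scale, each point is 1 of 44 genes and black bars are medians, which lie at -0.063 on CGP replicate 1 and at 0.056 and 0.049 on the other CGP arrays, against -0.020, -0.037 and 0.026 on the CON arrays.

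Leaving out CGP replicate 1 changed the description and not the calls. That array was the lowest CGP array for 36 of the 44 genes (81.8%), against 29.1% of all tested probesets. Leaving it out therefore raises the CGP means of these genes by construction. The counts that follow carry this choice and are no separate evidence of a rise. Without CGP replicate 1, 39 of the 44 genes had a higher mean in CGP, against 47% of all 18253 probesets tested in that fit. The median difference was 0.059 over the members and -0.0061 over those probesets. The background moved with signal level: 68.6% of probesets with a mean signal from 6 to 7 had a higher mean in CGP, 59.3% from 7 to 8, 41.2% from 8 to 9 and 33.6% from 9 up. Of the members, 4 of 4, 21 of 26 and 14 of 14 did so in the bands that held any, and nothing particular to collagen genes was tested. For 15 genes (34.1%) both remaining CGP arrays lay above all CON arrays, against 14.5% of all tested probesets. At an unadjusted p under 0.05 there were 9 of 44 genes, all higher in CGP, where 6.87% of all tested probesets were higher and 7.35% lower by that rule. After adjustment there were 0 by limma, with a smallest adjusted p of 0.246, and 0.0493% of all tested probesets passed. Col14a1 had the largest difference, 0.20 (standard error 0.058, adjusted p = 0.246 by limma). Differences were 0.16 for Col25a1, 0.13 for Col17a1, 0.13 for Col18a1, 0.12 for Col23a1 and 0.10 for Col13a1. Col1a1 (6.7e-04), Col1a2 (0.015) and Col4a2 (-0.019) stayed near 0 on this scale. The highest 95% bound was then 0.34, still inside 1.4-fold.

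No gene of the machinery that makes and reads collagen passed the test either. Over all tested probesets 0.28% passed, so that 0 calls in lists of this size were close to the background. Of 32 genes of biosynthesis and cross-linking, 28 were tested and 0 passed, with 14 positive and 14 negative differences and a median of 0.0014. P3h2, a prolyl 3-hydroxylase, had the smallest p of the list, at 7.84 in CGP and 8.04 in CON, a difference of -0.20 (standard error 0.051, adjusted p = 0.250 by limma). The collagen chaperone gene Serpinh1 differed by 0.044. Of 11 receptor genes, 10 were tested and 0 passed, with 9 negative differences and a median of -0.049. The kinase receptor gene Ddr2, which binds fibrillar collagen, had the smallest p, at 7.51 in CGP and 7.71 in CON, a difference of -0.20 (standard error 0.058, adjusted p = 0.294 by limma). Of 16 basement membrane partners of type IV collagen, 15 were tested and 0 passed, with a median of -0.0055. Lamb1, a laminin chain, had the smallest p (difference 0.12, adjusted p = 0.355 by limma), and Hspg2, the perlecan gene, differed by -0.0059. All CGP arrays lay below all CON arrays for 5 of 28 biosynthesis genes, 3 of 10 receptor genes and 2 of 15 basement membrane partners. They lay above for 2, 0 and 2 genes of these lists. Among all tested probesets, CGP lay below for 9.95% and above for 7.59%.

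Genes of proteins that bind collagen fibrils, and markers of the cells known to make them, did hold calls. Over all tested probesets, 0.126% passed as lower in CGP and 0.154% as higher. Of 18 fibril-associated protein genes, 13 were tested and 2 fell, the small proteoglycan genes Ogn and Fmod, with a median of -0.089 over the list. Their log2 differences were -0.44 for Ogn (adjusted p = 0.0293 by limma) and -0.36 for Fmod (adjusted p = 0.0409 by limma). Fmod, whose product binds type I fibrils, was at 8.85 ± 0.062 in CGP and 9.20 ± 0.070 in CON (SD, n = 3 arrays each). Dcn, for decorin, was at 9.43 in CGP and 9.69 in CON and did not pass (adjusted p = 0.140 by limma). The other small proteoglycan genes measured did not pass either. Bgn differed by -0.25 (adjusted p = 0.0582 by limma), Prelp by -0.049 and Lum by 0.020. Of 16 meningeal fibroblast markers, all tested, 3 fell, Slc6a20a, Aldh1a2 and Igf2, and the median was -0.15. Dcn and Lum stand in both lists, and Lama1 stands in this list and among the basement membrane partners. The summed linear signal of the meningeal markers ran from 7337 to 7519 on CGP arrays and from 8549.7 to 8820.2 on CON arrays. The called Igf2 and Slc6a20a were the brightest of the list and weigh most in this sum. The fibrillar chains known from the same cells, Col1a1, Col1a2 and Col3a1, did not pass, with the intervals given above. In pooled tissue, fewer cells of a type and less RNA per cell cannot be told apart.

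Vessel markers lay beside the type IV chains as follows, where 0.126% of all tested probesets passed as lower in CGP and 0.154% as higher. Of 7 vascular smooth muscle markers 2 fell, Acta2 and Myl9, and the summed signal was 1831 to 1854 on CGP arrays and 2116 to 2149 on CON arrays. Of 9 pericyte markers 0 passed (summed signal 3992 to 4178 in CGP and 4184 to 4431 in CON), and of 11 measured endothelial markers 0 passed (8194 to 8627 in CGP and 8602 to 8793 in CON). Vtn had the smallest p of the pericyte list, at 10.71 in CGP and 10.88 in CON, and Pecam1 that of the endothelial list, at 8.07 in CGP and 8.17 in CON. Of 12 choroid plexus markers 10 were tested and 2 rose, Ttr and Slc4a5, and Cldn2 lay below the filter. Their summed signal was 8884 to 9078 in CGP and 5671 to 5976 in CON. Such sums weigh the brightest probesets most. In the choroid plexus list that was Ttr, at 12.68 in CGP and 11.83 in CON. Among smooth muscle markers the called Acta2 and Myl9 were the brightest. These sums therefore largely repeat the called genes and do not measure the amount of a tissue. The part of these tissues in the collagen signals was not tested. The calls of fibril-associated, meningeal and smooth muscle genes were lost in several settings: without CGP replicate 1, 1, 0 and 0 genes of these lists passed, and without any other single array 0 passed. With all arrays, 0 genes of these lists passed when every probeset was tested, when each gene's own variance alone was used, or with the replicate number as a block. Without the signal filter 1 meningeal and 1 smooth muscle gene passed, and with centred arrays 1 meningeal gene. Other settings kept or raised the counts. With a filter at a mean of 7, 3 fibril-associated, 5 meningeal and 2 smooth muscle genes passed. With the mean of a gene's probesets 2, 3 and 2 genes of these lists passed, as in the fit reported. In the choroid plexus list 1 gene passed without each array in turn, with every probeset tested and with the block, and 0 on each gene's own variance alone.

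**Figure D4:**
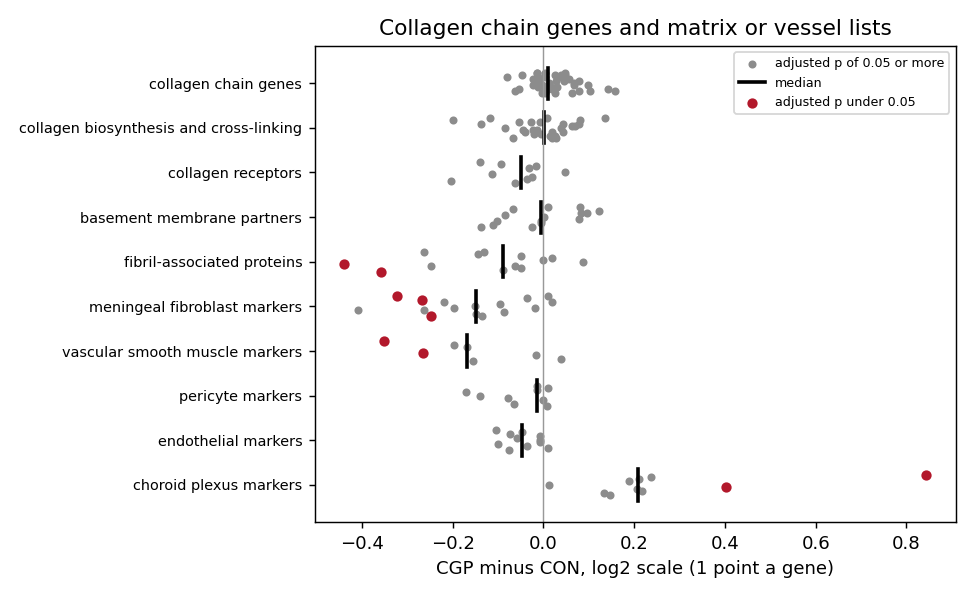
Differences of the 44 collagen chain genes beside lists of matrix, vessel and choroid plexus genes. The horizontal axis is CGP minus CON on the log2 scale, each point is 1 tested gene, red points had an adjusted p under 0.05 by limma and black bars are medians; the collagen chain genes have no red point and a median of 0.011, against -0.089 for fibril-associated proteins and -0.15 for meningeal fibroblast markers.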

How the data were processed

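The authors deposited 1 table of log2 values of 28471 probesets on 6 arrays. Their processing notes name RMA and Partek, without their versions. RMA, as usually run, corrects background, makes arrays share a distribution and combines probes of a probeset, so that low signals are compressed. Values were used as deposited. In the platform annotation 18690 probesets had 1 gene, 1163 had several and 8618 were missing. Of the 18690, 451 had a mean below 6 and were removed. CGP was compared with CON on all arrays with limma 3.58.1 (lmFit, eBayes) in R 4.3.3, adjusted by Benjamini-Hochberg over 18239 probesets, and a gene was called at an adjusted p under 0.05. The precision is limited by 3 arrays a group. All 44 members matched RefSeq by Entrez identifier. The steps were tested on simulated arrays.

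Members and lists were chosen with earlier results of these data known. Values on every array are given for members past the test, those whose groups did not overlap and the member of highest mean in each class. Of each list, up to 4 called genes are named, or otherwise the gene with the smallest p. Array values of other members and other list genes were chosen after their values were seen. Alternatives changed the filter, the probesets, the centring, the test, the block and the arrays.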

Additional observations from a re-analysis of the deposited data

How the results depend on the processing

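No collagen chain gene was called in either direction in the 15 alternatives that refit the model, nor with a 1.4-fold threshold added. The smallest adjusted p of the members ran from 0.187 with a trended and robust eBayes to 0.62 without CGP replicate 2. The 2 genes with all CGP arrays above all CON arrays became 1 with arrays centred on their median, and 2 to 15 with 1 array left out (15 without CGP replicate 1, 5 without CON replicate 3 and 4 without CON replicate 1). The 0 genes with all CGP arrays below became 0 to 2 (2 without CGP replicate 3 or CON replicate 1, 1 without CGP replicate 2 or CON replicate 3). The background moved too. Among all tested probesets, CGP lay above CON for 10.1% after centring, and for 11% to 14.5% when an array was dropped. CGP lay below CON for 12.6% to 19.4% of them when an array was dropped. Fewer arrays make such separation more frequent, and the cause beyond that was not tested. The median difference ran from -0.010 without CGP replicate 2 to 0.059 without CGP replicate 1, so that its sign is not fixed. Of 700 gene-by-setting values, 66 had another sign than in the fit reported, in 26 of the 44 genes, and none of these was called. With 1 array left out, the log2 difference took both signs in 26 genes. The ranges were those of Col1a1 (-0.054 to 0.010), Col1a2 (-0.033 to 0.042), Col2a1 (-0.061 to 0.062), Col3a1 (-0.030 to 0.055), Col5a1 (-0.053 to 0.024), Col5a2 (-0.025 to 0.0032), Col11a1 (-0.047 to 0.043), Col24a1 (-0.0073 to 0.054) and Col4a2 (-0.035 to 0.0029). The same held for Col4a3 (-0.052 to 0.027), Col4a4 (-0.040 to 0.056), Col4a5 (-0.065 to 0.036), Col4a6 (-0.045 to 0.040), Col6a2 (-0.054 to 0.037), Col6a3 (-0.0082 to 0.065), Col6a6 (-0.047 to 0.047), Col7a1 (-0.0043 to 0.079) and Col9a3 (-0.029 to 0.066). It also held for Col19a1 (-0.030 to 0.027), Col20a1 (-0.049 to 0.075), Col22a1 (-0.058 to 0.035), Col13a1 (-0.070 to 0.10), Col23a1 (-0.026 to 0.12), Col18a1 (-0.012 to 0.13), Col26a1 (-0.034 to 0.085) and Col28a1 (-0.059 to 0.041). With centred arrays the sign turned for Col4a2 (6.3e-04), Col11a1 (0.0054), Col2a1 (0.0034), Col5a1 (0.0087) and Col13a1 (0.0085), with array weights for Col6a6 (0.015), Col11a1 (0.0086), Col1a2 (-0.0086), Col28a1 (0.021) and Col13a1 (0.031), and with the mean of a gene's probesets for Col6a6 (0.033). Arrays with the same number were not treated as pairs, since deviations of same-numbered arrays correlated at 0.078, -0.18 and 0.11. With the replicate number as a replicate block, 0 collagen chain genes were called (smallest adjusted p 0.459), and over all probesets 6 were called, against 51 without the block; no fibril-associated, meningeal or smooth muscle gene was among them. Calls over all probesets ran from 5 with every probeset tested to 249 with the trended and robust eBayes. The files used hold no detection p, and 4 members had a mean signal under 7, where background compresses differences.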

Other observations

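Lists of other cells and regions gave these values, where 0.154% of all tested probesets passed as higher in CGP and 0.126% as lower. Of 13 measured genes that define the hypothalamus, 0 passed, with a median difference of -0.018, and Sim1 had the smallest p, at 8.16 in CGP and 8.27 in CON. Of 8 tested pituitary genes 3 rose, Pomc, Gh and Lhb, and the median was 0.24. Of 7 thalamus genes 2 rose, Ptpn3 and Prkcd, and the median was 0.24. With every probeset tested, on each gene's own variance alone, with the replicate number as a block, or with any 1 array left out, 1 pituitary gene and 0 thalamus genes passed. Of 9 neuron genes, 8 oligodendrocyte lineage genes and 7 astrocyte genes 0 passed, with medians of -0.020, -0.051 and -0.065. The smallest p of these lists were those of Nefl (11.68 in CGP and 11.77 in CON), Mog (10.46 in CGP and 10.60 in CON) and S100b (10.16 in CGP and 10.29 in CON). The part of these tissues in the collagen signals was not tested.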
